A study of Saccharomyces cerevisiae with 8 samples.

Results

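The genes described here encode proteins of the small-subunit processome and of 40S ribosomal subunit maturation in the budding yeast Saccharomyces cerevisiae. They were selected by gene name, with earlier results of these data known. The selection took 18 gene models named UTP with a number and 29 further named factors. These are 47 of the 6596 gene models in the deposited count table. Poly(A) RNA was sequenced from 4 libraries of WT and 4 of mcd1-1, lettered A to D in each group. Both groups derive from the haploid laboratory strain W303-1a and were grown in YPD, a rich glucose medium, from an OD600 of 0.2 for 2 generations at 31 °C, into logarithmic phase. The WT cells carry no further allele in the labels, and the mcd1-1 cells carry a mutant allele of MCD1, the gene of cohesin's kleisin, a part of the ring that keeps sister chromatids joined.

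The small-subunit processome is a very large particle that assembles on the nascent ribosomal RNA precursor in the nucleolus. It forms stepwise: the UtpA complex binds the leader of the precursor first, then UtpB, the U3 snoRNP and the Mpp10 complex join, and the U3 RNA pairs with the precursor at the sites where it is cut and folded. RNA helicases and GTPases then dismantle the particle, and a smaller set of factors accompanies the pre-40S subunit to the cytoplasm. In yeast most of these genes belong to the ribosome biogenesis regulon, which is known to be shut down together when growth slows and to share a pair of short promoter elements named PAC and RRPE.

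Library totals ran from 22331070 to 58506447 counts, and the lowest count of any of the 47 genes in any library was 570, so that depth did not limit their detection. MCD1 itself stood at 80.7, 87.2, 75.0 and 78.1 CPM (counts per 1e+06 counts of a library, scaled by TMM) in WT A to D and at 378, 288, 286 and 295 CPM in mcd1-1 A to D. The mutant libraries were thus all the higher ones, and an mRNA level does not by itself check a point allele. Libraries A and B stood apart from C and D in both groups, by a chi-square per degree of freedom of 316 to 542 across these pairs against 11.8 to 101 within them. Nothing in the labels says what sets these pairs apart, or that each library had its own culture, and p-values here reflect no more than the spread among these libraries, which may be technical. All 6 a-cell markers were detected, with a summed level of 980 to 1167 CPM in WT and 683 to 970.4 CPM in mcd1-1. The 4 alpha-cell markers were also detected, at a sum of 35.7 to 45.9 CPM in WT and 108 to 146 CPM in mcd1-1, and no marker was at 0. Their part in the results was not tested.

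All 47 genes had the same coordinates in the deposited table and in the RefSeq annotation of build R64. They lie on 14 chromosomes, have no intron, and span 552 to 7482 bases. None has a near-identical copy. NOP56, NOP58 and RRP9 each overlap another gene model, and whether reads were counted by strand is not stated by the sources at hand, so their values are less certain.

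The promoters show what the genes share. In the 300 bases before each annotated start, the PAC core GATGAG, read on both strands, was present in 42 of the 47 genes (89.4%), against 19.1% of 6001 windows of the same length before all protein-coding genes. The RRPE core AAAATTTT, which reads the same on both strands, was present in 36 genes (76.6%), against 9.42% of all windows. Both were present in 33 genes (70.2%), against 4.45% of all windows, and UTP22 and UTP30 held neither. The longer forms GCGATGAG and AAAAATTTT were present in 53.2% and 59.6% of the genes, against 4.05% and 7.33% of all windows. The PAC and RRPE cores cannot overlap each other, and PAC can overlap a second copy of itself by 1 base. These are matches of letters, and 16 of the 47 windows also overlap another coding gene.

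To show how the elements are arranged, stretches are printed of 10 of the 11 genes with lower mRNA in mcd1-1 and of UTP10 and BFR2, which did not pass the test described later, read 5′ to 3′ on the coding strand of each gene. Capitals mark the PAC core (GATGAG, or CTCATC where it lies on the other strand) and the RRPE core.
NOP56 (chrXII:545915-546004, plus strand): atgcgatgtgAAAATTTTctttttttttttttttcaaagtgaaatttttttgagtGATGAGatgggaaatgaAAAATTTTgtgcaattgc
NOP1 (chrIV:427129-427177, plus strand): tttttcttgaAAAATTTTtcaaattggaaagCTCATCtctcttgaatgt
NOP58 (chrXV:898458-898505, minus strand): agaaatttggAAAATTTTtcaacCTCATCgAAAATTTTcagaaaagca
UTP23 (chrXV:333472-333541, plus strand): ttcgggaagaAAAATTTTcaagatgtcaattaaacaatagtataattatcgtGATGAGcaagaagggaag
KRR1 (chrIII:23430-23527, minus strand): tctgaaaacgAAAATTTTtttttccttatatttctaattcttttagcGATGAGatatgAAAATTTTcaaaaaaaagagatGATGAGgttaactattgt
IMP4 (chrXIV:485450-485498, plus strand): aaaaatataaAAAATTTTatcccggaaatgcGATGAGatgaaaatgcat
MPP10 (chrX:438763-438807, plus strand): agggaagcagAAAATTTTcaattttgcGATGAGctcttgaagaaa
IMP3 (chrVIII:393442-393469, plus strand): ctgatataagCTCATCgcaacaaaaatt
ENP1 (chrII:714558-714601, minus strand): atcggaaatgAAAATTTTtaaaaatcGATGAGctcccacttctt
UTP11 (chrXI:256584-256617, minus strand): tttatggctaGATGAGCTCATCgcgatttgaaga
UTP10 (chrX:217392-217435, minus strand): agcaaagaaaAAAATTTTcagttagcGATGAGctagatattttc
BFR2 (chrIV:1059491-1059540, plus strand): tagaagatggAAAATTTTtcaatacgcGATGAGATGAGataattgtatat
In the printed stretches of NOP1, UTP23, IMP4, MPP10, ENP1, UTP10 and BFR2 the RRPE core comes first and the PAC core follows, and IMP3 and UTP11 have PAC alone. BFR2 carries a pair of overlapping PAC cores. UTP8, the gene of the 11 that is not printed, has 3 PAC cores, 90 to 229 bases from the start codon, and no RRPE core.

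Among the 33 genes with both elements, the RRPE match nearest the start codon lay farther from it than the nearest PAC match in 30, with a median difference of 20 bases. Every RRPE match lay farther out than every PAC match in 23 of the 33. The 62 PAC matches lay at a median of 112.5 bases from the start codon (quartiles 91.25 and 149.25), and the 43 RRPE matches at a median of 130 bases (quartiles 116 and 147.5). At least 2 PAC cores were present in 17 genes.

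**Figure D1:**
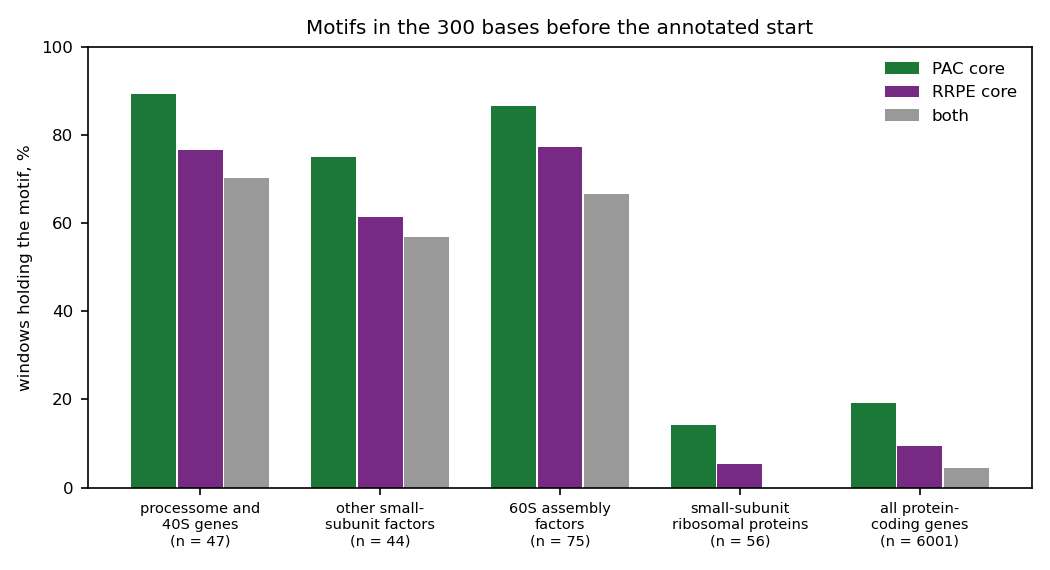
Share of promoter windows of 300 bases (percent, y axis) that hold the PAC core, the RRPE core or both, for the 47 genes, for other gene lists and for all protein-coding genes. The 47 genes reach 89.4%, 76.6% and 70.2%, close to the 60S assembly factors (86.7%, 77.3% and 66.7%) and far from the small-subunit ribosomal protein genes (14.3%, 5.36% and 0).

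The comparison of mcd1-1 with WT asks which of these mRNAs differed in abundance. Of the 47 genes, 11 were lower in mcd1-1 and 0 higher, by edgeR's quasi-likelihood F test with adjustment over 6558 genes and a threshold of 0.05. The 11 were UTP23, NOP56, KRR1, NOP1, IMP4, NOP58, UTP11, MPP10, UTP8, IMP3 and ENP1. The share called lower in this fit, 23.4%, was near the background: 19.7% of all genes tested were lower and 20.7% higher. At an unadjusted p under 0.05 the count was 13 lower and 0 higher, against 24.3% and 25.7% of all genes. DESeq2 gave 13 lower (27.7%) and 0 higher, against 23.8% and 23.2%. The fits so far had group as their only term. With the pair of letters (A and B, or C and D) as a block, 70.2% of the 47 genes were lower, against 34.2% of all genes. In bulk samples, fewer cells of a type and less RNA per cell cannot be told apart.

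The 47 values of log2 fold change, given throughout as mcd1-1 over WT with the standard error (SE), had a median of -0.41, beside a median of -0.01 over all genes. Without WT D their median was -0.25. They were below 0 in 43 of the 47 genes, against 50.6% of all genes, and ran from -1.05 to 0.28. In 10 genes all mcd1-1 libraries lay below all WT libraries (21.0% of all genes did so), in 0 genes all lay above (22.1% of all genes), and in 37 the groups overlapped. NOP56 and UTP23 alone were lower by at least 2-fold. The summed level of the 47 genes was 7902, 8107, 13116 and 13317 CPM in WT A to D and 5816, 5318, 8742 and 8771 CPM in mcd1-1 A to D. The mcd1-1 library was below the WT library of the same letter for all 4 letters, yet mcd1-1 C and D lay above WT A and B, so the groups overlapped.

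With the replicate letter as a block, edgeR called 26 of the 47 genes lower (55.3%) and 0 higher. Over all genes the shares were 30.2% lower and 29.4% higher. With the pair of letters (A and B, or C and D) as the block, edgeR called 33 lower (70.2%) and 2 higher, against 34.2% and 33.7%. The 2 were BFR2 (0.35, edgeR adjusted p = 0.026) and SOF1 (0.29, edgeR adjusted p = 0.049). The lower calls of that block beyond those of the replicate block were RRP3, UTP5, RRP7, RIO2, LTV1, NOP14 and UTP20, at edgeR adjusted p of 0.011 to 0.034. With the scaling set by library size alone, which moved the median of all genes to 0.33, it called 5 lower and 2 higher (SOF1 and RRP36), against 8.39% of all genes lower and 37.5% higher, and the median of the 47 genes was -0.08. That scaling ended the calls on ENP1, IMP3, IMP4, MPP10, UTP8 and UTP11. For every role group the background is likewise 19.7% of all genes lower, and 30.2% with the replicate block. Groups this small give only coarse shares. In C and D only, every gene of UtpA, UtpB, UtpC, the U3 snoRNP, the Mpp10 complex and the late factors was lower. There 3 of 5 RNA helicases and 11 of 16 other factors were lower, against 37.1% of all genes. A role group without calls in the fit with group alone is therefore not shown to be unchanged. Lower calls in NOP56, NOP1, NOP58, UTP23 and KRR1 stood in all 20 alternative fits, though NOP58 only just met the threshold in the least favourable of them.

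**Figure D2:**
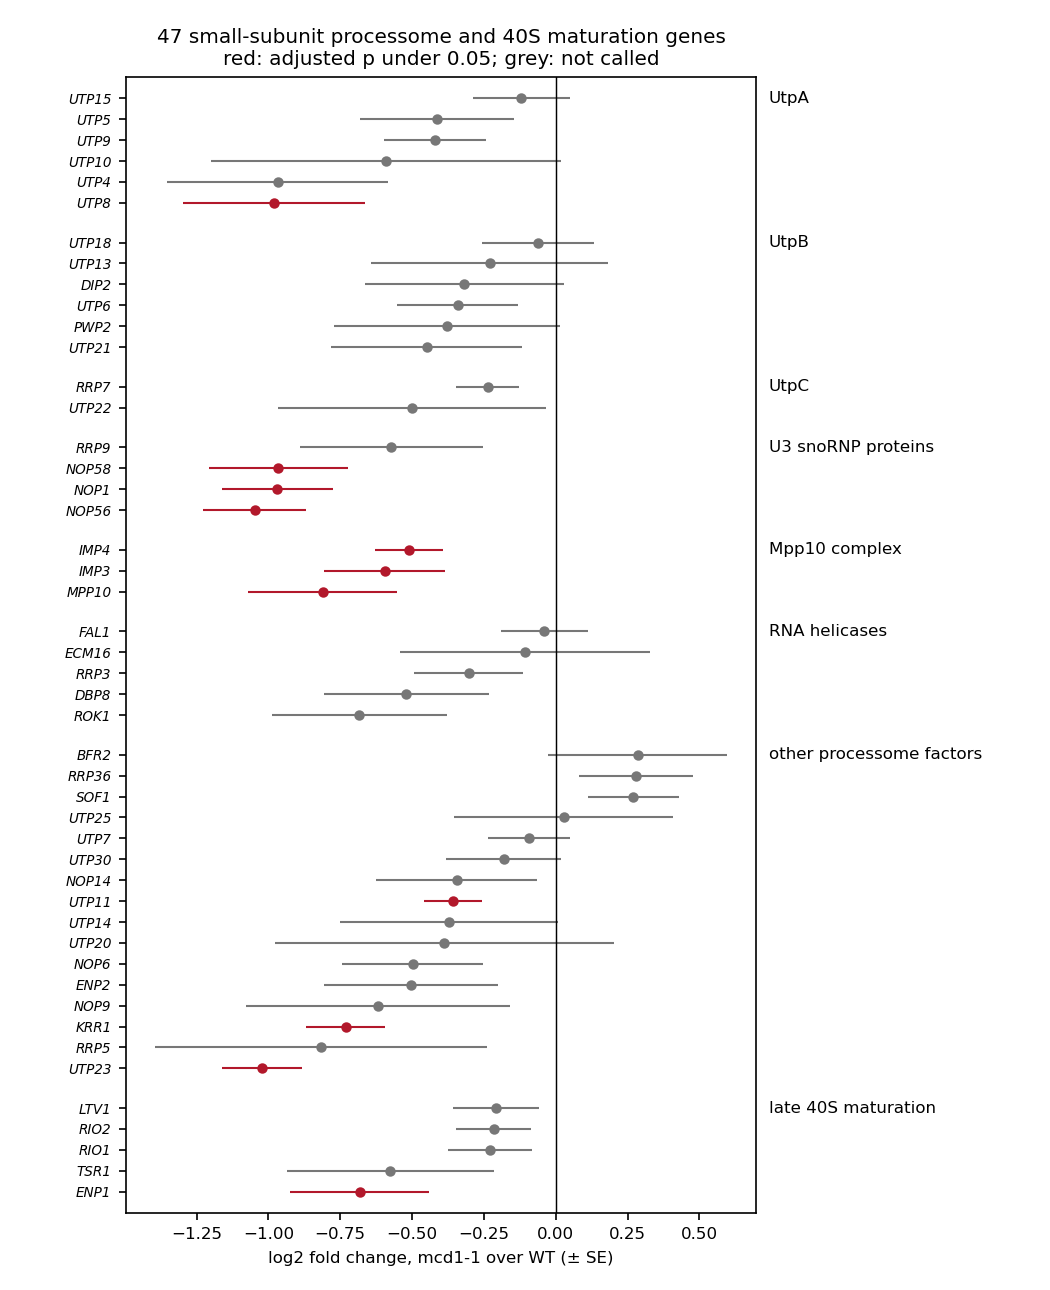
Log2 fold change of mcd1-1 over WT (x axis, points, with bars of ± 1 SE) for each of the 47 genes, grouped by role. The 11 genes called lower are red and the others grey, 43 of 47 points lie below 0, and the U3 snoRNP proteins and the Mpp10 complex have the lowest medians, -0.97 and -0.59.

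The U3 snoRNP carries the U3 RNA together with the core box C/D proteins. Its protein genes had the lowest median of the role groups, -0.97, with 3 of 4 lower. NOP56, NOP58 and RRP9 are the genes that overlap another gene model, so this rank rests largely on the less certain values. NOP1, NOP56 and NOP58 were also the 3 most abundant of the 47 genes per kb in WT, and more abundant genes had more negative changes. Nop56 and Nop58 are the scaffold proteins of box C/D snoRNPs, and Nop1, the yeast fibrillarin, is their methyltransferase. NOP56 stood at 1059.9, 1113, 990.0 and 962 CPM in WT A to D and at 501, 364, 586 and 543 CPM in mcd1-1 A to D. Every mcd1-1 library was well below every WT library, a log2 change of -1.05 ± 0.18 (SE, n = 4 and 4, edgeR adjusted p = 0.0020). NOP1 stood at 717, 725, 921 and 876 CPM in WT and at 444, 291, 452 and 468 CPM in mcd1-1, again without overlap (-0.97 ± 0.19, edgeR adjusted p = 0.0040). NOP58 stood at 671, 735, 940.2 and 889 CPM in WT and at 378, 255, 525 and 499 CPM in mcd1-1. Its groups did not overlap either (-0.97 ± 0.24, edgeR adjusted p = 0.012), and mcd1-1 B was the lowest library for all of NOP56, NOP1 and NOP58.

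RRP9, which encodes the U3-specific protein of the particle, did not pass the test. It stood at 95.3, 93.3, 204 and 229.9 CPM in WT and at 86.8, 86.2, 122 and 124 CPM in mcd1-1. The C and D libraries of mcd1-1 lay above the A and B libraries of WT, so the groups overlapped (-0.57 ± 0.32, edgeR adjusted p = 0.178). With the replicate block it was lower (edgeR adjusted p = 0.037).

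The Mpp10 complex joins the U3 RNA to the precursor, and its Imp3 and Imp4 proteins promote the pairing of U3 with it. All 3 of its genes were lower, with a median of -0.59. IMP4 stood at 102, 104, 118 and 120.4 CPM in WT and at 71.0, 78.5, 81.5 and 80.7 CPM in mcd1-1, with no overlap (-0.51 ± 0.12, edgeR adjusted p = 0.0078). MPP10 stood at 207, 212, 332 and 330.3 CPM in WT and at 113, 116, 190.1 and 198 CPM in mcd1-1. All of its mcd1-1 libraries were below all WT libraries (-0.81 ± 0.26, edgeR adjusted p = 0.033). IMP3 stood at 62.3, 58.0, 91.4 and 92.0 CPM in WT and at 41.7, 40.7, 57.8 and 61.0 CPM in mcd1-1. Its highest mcd1-1 library lay above its lowest WT library (-0.59 ± 0.21, edgeR adjusted p = 0.048). The call on IMP3 was lost when any of WT C, WT D or the 4 mcd1-1 libraries was left out (edgeR adjusted p 0.0590 to 0.181), and that on MPP10 without WT C, WT D, mcd1-1 A or mcd1-1 B (0.0755 to 0.125).

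UtpA is the first complex to bind the precursor and is linked to its transcription. Of its 6 genes, UTP8 was lower, a share of 16.7% and below the 19.7% of all genes, and the median was -0.51. UTP8 stood at 192, 183, 289.7 and 293 CPM in WT and at 73.6, 80.3, 158 and 173 CPM in mcd1-1. The groups did not overlap (-0.98 ± 0.32, edgeR adjusted p = 0.034), and leaving out WT C, WT D, mcd1-1 A or mcd1-1 B ended the call (0.0739 to 0.121). UTP4 had much the same size of difference, at 195, 199, 352 and 364 CPM in WT and 83.9, 77.0, 199 and 207 CPM in mcd1-1. WT A and mcd1-1 C and D met near the same level, and the difference missed the threshold (-0.97 ± 0.38, edgeR adjusted p = 0.071), while DESeq2 gave an adjusted p of 0.025. The 4 others were UTP9 (-0.42 ± 0.18), UTP5 (-0.41 ± 0.27), UTP10 (-0.59 ± 0.61) and UTP15 (-0.12 ± 0.17). With the replicate block, UTP4, UTP8, UTP9 and UTP10 were lower, at edgeR adjusted p of 0.00089, 0.00091, 0.0069 and 0.0057.

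UtpB, a complex largely of WD-repeat proteins that follows UtpA onto the leader, had none of its 6 genes called, with a median of -0.33. UTP6 stood at 67.2, 73.9, 100.3 and 112 CPM in WT and at 51.0, 66.6, 79.0 and 82.0 CPM in mcd1-1 (-0.34 ± 0.21, edgeR adjusted p = 0.217). UTP21 stood at 141, 136, 304 and 323 CPM in WT and at 123, 131, 203 and 206 CPM in mcd1-1 (-0.45 ± 0.33, edgeR adjusted p = 0.305). In both genes each mcd1-1 library was below the WT library of its own letter, and the groups overlapped. PWP2, DIP2, UTP13 and UTP18 had log2 changes of -0.38 ± 0.39, -0.32 ± 0.35, -0.23 ± 0.41 and -0.06 ± 0.19. With the replicate block, UTP6, UTP21 and DIP2 were lower, at edgeR adjusted p of 0.020, 0.044 and 0.023. In C and D only all 6 were lower, against 37.1% of all genes. In A and B only 1 was lower and 1 higher, against 32.9% and 34.8%.

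Utp22 and Rrp7 belong to the UtpC complex. Neither gene was called. RRP7 stood at 141, 148, 135 and 139.7 CPM in WT and at 124, 124, 116 and 114 CPM in mcd1-1. All mcd1-1 libraries lay below all WT libraries by a small margin (-0.24 ± 0.11, edgeR adjusted p = 0.114, DESeq2 adjusted p = 0.0145). UTP22 stood at 133, 147, 372 and 382 CPM in WT and at 95.7, 108, 262 and 266 CPM in mcd1-1. Its pairs of letters differed far more than its groups did (-0.50 ± 0.47, edgeR adjusted p = 0.419), and with the replicate block it was lower (edgeR adjusted p = 0.0044).

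The 5 RNA helicases, which remodel the particle and release its RNAs, included none that was called, with a median of -0.30. ROK1, which encodes a DEAD-box helicase, stood at 90.2, 91.2, 174 and 181 CPM in WT and at 64.6, 59.4, 99.7 and 110.3 CPM in mcd1-1 (-0.68 ± 0.30, edgeR adjusted p = 0.101). DBP8, another DEAD-box gene, stood at 42.0, 39.3, 81.8 and 85.1 CPM in WT and at 33.4, 37.3, 50.9 and 51.6 CPM in mcd1-1 (-0.52 ± 0.29, edgeR adjusted p = 0.174). Both overlapped between the groups, and both were lower with the replicate block (edgeR adjusted p = 0.0016 and 0.022). FAL1, the least abundant of the 47 per kb of coding length in WT, stood at 38.4, 37.1, 49.7 and 51.6 CPM in WT and at 36.6, 45.3, 44.7 and 45.6 CPM in mcd1-1. The 95% interval of its log2 change ran from -0.38 to 0.30.

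Among the 16 other processome factors 3 were lower, a share near the 19.7% of all genes, and the median was -0.36. UTP23, which encodes a PIN-domain protein known to act with the snR30 snoRNA, stood at 129, 145, 138 and 131 CPM in WT and at 82.8, 59.0, 62.5 and 63.2 CPM in mcd1-1. It had the smallest adjusted p of the 47 genes, with a wide gap between the groups (-1.02 ± 0.14, edgeR adjusted p = 0.00073). KRR1, which encodes a KH-domain protein, stood at 270.0, 262, 217 and 220.1 CPM in WT and at 151, 129, 152 and 152 CPM in mcd1-1. The groups lay far apart (-0.73 ± 0.14, edgeR adjusted p = 0.0032), and here A and B were the higher WT libraries. UTP11 stood at 79.8, 85.5, 82.0 and 84.8 CPM in WT and at 61.1, 63.1, 68.6 and 66.7 CPM in mcd1-1. The difference was small and without overlap (-0.36 ± 0.10, edgeR adjusted p = 0.020), and it was lost without WT B or any of the 4 mcd1-1 libraries (0.0552 to 0.0833).

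Of the remaining 13, the largest difference was that of RRP5, which encodes an RNA-binding protein needed for both ribosomal subunits. It stood at 245, 270.4, 922 and 940.3 CPM in WT and at 179.8, 145, 504 and 520.1 CPM in mcd1-1. The change of -0.82 ± 0.58 did not pass (edgeR adjusted p = 0.282), since C and D exceeded A and B in each group by more than the groups differed, and it passed with the replicate block (edgeR adjusted p = 0.0024). SOF1, RRP36, BFR2 and UTP25 were the 4 genes with values above 0, at 0.27 ± 0.16, 0.28 ± 0.20, 0.28 ± 0.31 and 0.03 ± 0.38, and none was called in the fit with group alone or with the replicate block. With the replicate block, NOP6, NOP9, ENP2 and RRP5 were lower beside UTP23, KRR1 and UTP11.

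The late factors ride with the pre-40S particle to the cytoplasm. Of the 5, ENP1 was lower, also a share near that of all genes, and the median was -0.23. ENP1 stood at 139, 127, 215 and 221 CPM in WT and at 89.4, 84.7, 125 and 139 CPM in mcd1-1. The groups met at about the level of WT A (-0.68 ± 0.24, edgeR adjusted p = 0.049), and leaving out WT C, WT D or any of the 4 mcd1-1 libraries ended the call (0.0529 to 0.173). RIO2, an atypical kinase gene, stood at 92.6, 95.0, 111 and 116 CPM in WT and at 80.3, 83.7, 95.5 and 97.3 CPM in mcd1-1, with a small overlap (-0.22 ± 0.13, edgeR adjusted p = 0.215). TSR1, which encodes a GTPase-like protein, RIO1, a kinase gene related to RIO2, and LTV1, whose product binds Enp1, had log2 changes of -0.58 ± 0.36, -0.23 ± 0.15 and -0.21 ± 0.15. TSR1 was lower with the replicate block (edgeR adjusted p = 0.0056).

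**Figure D3:**
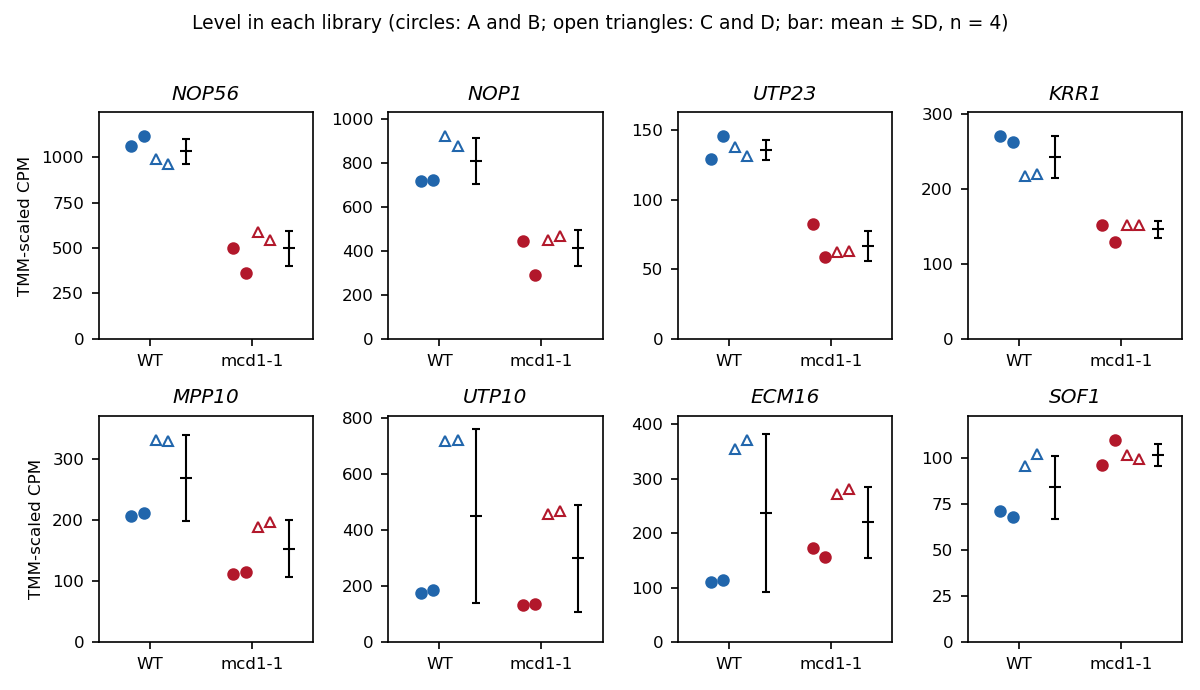
TMM-scaled CPM in each library (y axis from 0) of 8 genes in WT and mcd1-1, with circles for libraries A and B, open triangles for C and D, and bars for the mean ± SD (n = 4). NOP56, NOP1, UTP23 and KRR1 separate the groups in all libraries, while UTP10 differs more between A and B and C and D than between the groups, and ECM16 differs in opposite directions in them.

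In WT, levels per kb of coding length spanned 22.3-fold, from 36.9 CPM per kb for FAL1 to 823 CPM per kb for NOP1. The median was 93.0 CPM per kb, beside 59.4 CPM per kb over all genes, and 37 of the 47 genes lay above the latter. Genes with higher mean levels had the more negative log2 changes (Spearman rho -0.46 over the 47 genes), and the same held over all genes tested (rho -0.49). These are correlations across genes measured in the same libraries, which are not independent replicates.

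The split between libraries A and B and libraries C and D ran through most of the 47 genes. In WT both C and D lay above both A and B for 41 of the 47 genes, a far larger share than the 41.1% of all genes. In mcd1-1 they did so for 39 of the 47, again a far larger share than the 38.5% of all genes. The median log2 difference, C and D over A and B, was 0.70 in WT and 0.53 in mcd1-1, beside -0.04 and -0.01 over all genes. The difference in WT was below 0 for NOP6, KRR1, NOP56, RRP7 and UTP23. NOP6 went furthest the other way, at -0.74 in WT and -0.45 in mcd1-1. UTP20, whose product is a very large HEAT-repeat protein, stood at 134, 145, 553 and 558 CPM in WT and at 127, 133, 400.0 and 402 CPM in mcd1-1. UTP10, the largest UtpA subunit gene, stood at 176, 188, 715 and 721 CPM in WT and at 134, 136, 458 and 467 CPM in mcd1-1. Both were several times higher in C and D than in A and B whatever the group.

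This difference followed gene length. Across the 47 genes its Spearman correlation with coding length was 0.81 in WT and 0.79 in mcd1-1, beside 0.52 and 0.39 over all genes. In the 12 longest genes, from 2367 bases up, the median difference was 1.42 in WT and 0.96 in mcd1-1, and in the 12 shortest, up to 1278 bases, it was 0.24 and 0.12. The SE of the log2 fold change rose with length too (rho 0.82 over the 47 genes, -0.13 over all genes), while the log2 fold change itself did not follow it (rho -0.05). The part of transcript length, library preparation or RNA quality in the difference between A and B and C and D was not tested.

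**Figure D4:**
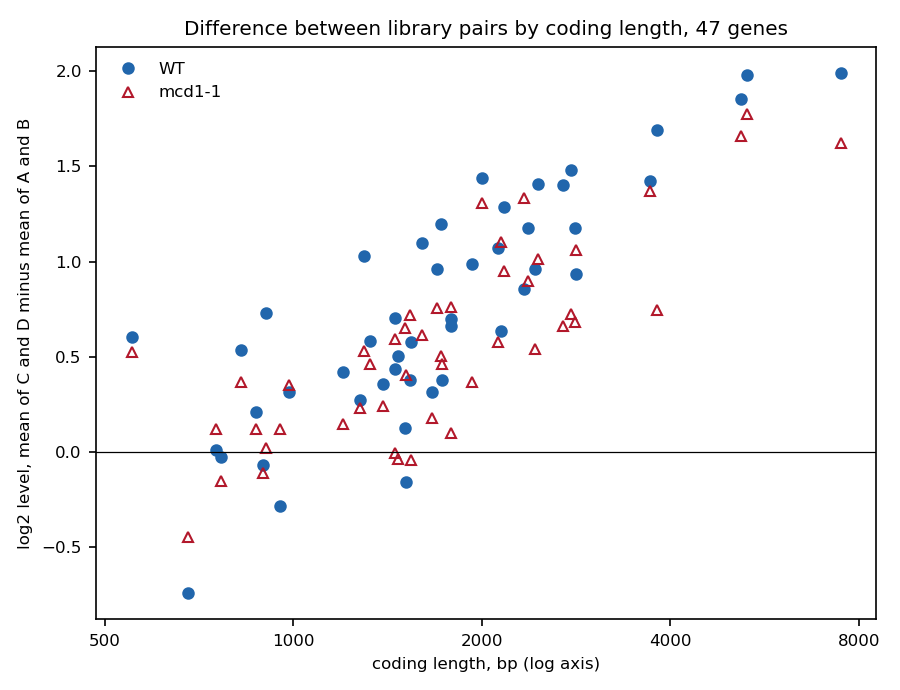
Log2 difference of libraries C and D over A and B (y axis) against coding length (x axis, log scale, bases) for the 47 genes in WT (blue circles) and in mcd1-1 (open red triangles). Long genes such as UTP20, UTP10 and RRP5 stand highest in both groups, with Spearman correlations of 0.81 and 0.79.

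Within each pair of letters the mcd1-1 libraries were compared with WT separately. In A and B, edgeR called 22 of the 47 genes lower (46.8%) and 5 higher, with a median of -0.22. The shares of all genes were 32.9% lower and 34.8% higher. In C and D, edgeR called 40 lower (85.1%) and 0 higher, with a median of -0.48. The shares of all genes there were 37.1% lower and 38.8% higher. The counts also depend on precision. RIO2 changed by -0.20 ± 0.10 (SE) in A and B, not called, and by -0.20 ± 0.05 in C and D, called lower. RRP7 likewise changed by -0.22 ± 0.10 and -0.22 ± 0.05, and was called only in C and D. Lower in both were 21 of the 47 genes, against 25.8% of all genes. The 7 not called in C and D were RRP3, FAL1, SOF1, RRP36, BFR2, UTP7 and UTP25.

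The change itself differed between the pairs of letters in 22 of the 47 genes, by the interaction term of edgeR's fit, which was added after the data were seen. It was more negative in C and D in 18 of the 47 genes, against 1240 of 6558 over all genes (18.9%). It was less negative in 4 of the 47, against 1168 of 6558 (17.8%). Called or not, the value was more negative in C and D in 35 of the 47 genes, against 50.0% of all genes. ECM16, whose helicase product is known to strip U3 from the precursor, stood at 110.0, 114, 353 and 371 CPM in WT and at 172, 157, 272 and 280.2 CPM in mcd1-1. It was higher in mcd1-1 in A and B (0.55, edgeR adjusted p = 0.0018) and lower in C and D (-0.36, edgeR adjusted p = 0.00035), a difference of -0.95 ± 0.11. UTP18, a UtpB gene, likewise was higher in A and B (0.28, edgeR adjusted p = 0.041) and lower in C and D (-0.28, edgeR adjusted p = 0.0013). SOF1, RRP36 and BFR2 were higher in A and B, at 0.56, 0.69 and 0.61, and were not called in C and D, at 0.06, 0.00 and 0.14, with interaction edgeR adjusted p of 0.0077, 0.0037 and 0.030.

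The 4 genes with the opposite difference were RRP3, UTP8, UTP4 and KRR1. RRP3, which encodes a DEAD-box helicase, was lower in A and B (-0.60, edgeR adjusted p = 0.0011) and not in C and D (-0.04, edgeR adjusted p = 0.483). UTP8 and UTP4 changed nearly alike, by -1.29 each in A and B and -0.78 each in C and D. KRR1 changed by -0.93 in A and B and -0.49 in C and D. By contrast, UTP23 and NOP1 had close values in both pairs, at -0.95 and -1.06 for UTP23 and at -0.97 and -0.93 for NOP1, with interaction edgeR adjusted p of 0.591 and 0.984.

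**Figure D5:**
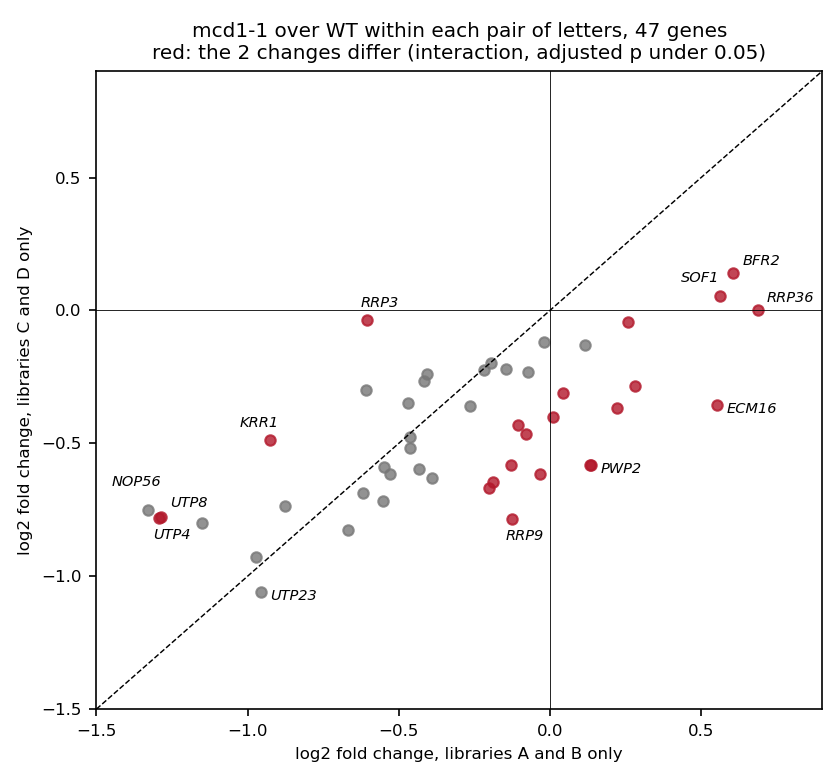
Log2 fold change of mcd1-1 over WT in libraries C and D (y axis) against that in libraries A and B (x axis) for the 47 genes, with the line of equal change dashed. Red marks the 22 genes with an interaction adjusted p under 0.05, of which ECM16 and UTP18 are called in opposite directions.

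A list of 44 other small-subunit factors, also chosen with earlier results of these data known, held 16 lower and 0 higher. The share lower was 36.4%, against 19.7% of all genes, and the median was -0.50. With the replicate block 29 were lower (65.9%, against 30.2%). With library size alone, 3 were lower and 4 higher, against 8.39% and 37.5% of all genes. The 4 with the smallest p were TSR2 (-0.76 ± 0.15, edgeR adjusted p = 0.0039), which encodes an escort of a ribosomal protein, RRT14 (-0.70 ± 0.14, 0.0044), TSR4 (-0.67 ± 0.14, 0.0045) and TRM112 (-0.78 ± 0.16, 0.0051), whose product activates several methyltransferases. All 4 subunit genes of casein kinase 2, which is part of the processome, were lower: CKA1 by -0.47 ± 0.13, CKA2 by -0.63 ± 0.16, CKB1 by -0.54 ± 0.16 and CKB2 by -0.62 ± 0.16. None of these 4 was called with library size alone, at edgeR adjusted p of 0.140 to 0.419. SNU13, the remaining box C/D core protein gene, was also lower (-0.78 ± 0.17, edgeR adjusted p = 0.0067). CKA1, CKA2, CKB1, CKB2 and SNU13 were picked out after their values were seen.

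For comparison, 31 of 75 matched 60S assembly factors were lower (41.3%), with a median of -0.60, and 54 of 56 small-subunit ribosomal protein genes (96.4%), with a median of -1.21, against 19.7% of all genes. In the same fit no gene of either list was higher, also at an unadjusted p under 0.05, nor was one by DESeq2. With library size alone 1 of the 60S factors was higher, and in A and B only 6 were. With the pair of letters as a block, 76.0% of the 60S factors and 98.2% of the ribosomal protein genes were lower. In that fit the shares were 70.2% of the 47 genes, 70.5% of the other small-subunit factors and 34.2% of all genes. The small-subunit ribosomal protein genes held PAC in 14.3% of their promoters, near the 19.1% of all windows, and both elements in 0, against 4.45%. Among the 47 genes, those with both PAC and RRPE had a median of -0.42 (8 of 33 lower), those with 1 of them -0.33 (3 of 12 lower), and UTP22 and UTP30, with neither, -0.34 (0 of 2 lower). Over all genes tested the medians were -0.45 with both elements (96 of 267 lower), -0.11 with 1 of them (250 of 1119, 22.3%) and 0.02 with neither (851 of 4493, 18.9%). The 267 include 33 of the 47 genes, 25 other small-subunit factors and 50 of the 60S factors, so they are not independent of these lists. Among the other small-subunit factors, 7 of 25 with both were lower, 4 of 10 with 1 and 5 of 9 with neither. Their medians were -0.55, -0.45 and -0.47. Among the 60S factors the counts were 20 of 50, 10 of 23 and 1 of 2, and the medians -0.67, -0.58 and -0.32.

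The known regulators of these promoters were measured in the same libraries. Dot6 and Tod6 are repressors that bind PAC, Stb3 is a repressor that binds RRPE, and Sfp1 is an activator of ribosome biogenesis genes. With group alone in the fit none was called: DOT6 had a log2 change of -0.28 ± 0.20 (edgeR adjusted p = 0.283), STB3 0.16 ± 0.13 (0.355), SFP1 0.31 ± 0.25 (0.361) and TOD6 0.39 ± 0.44 (0.509). With library size alone STB3 was higher (0.50, edgeR adjusted p = 0.018). TOD6 stood at 32.2, 32.5, 117 and 121 CPM in WT and at 77.6, 100.5, 112 and 105 CPM in mcd1-1. Only WT A and B were low, so that TOD6 was higher in mcd1-1 in A and B (1.46, edgeR adjusted p = 6.1e-05) and not in C and D (-0.09, edgeR adjusted p = 0.148), a difference of -1.59 ± 0.16 (edgeR adjusted p = 0.00072). SFP1 and STB3 were also higher in A and B (0.88 and 0.35) and not called in C and D (-0.07 and 0.03), and DOT6 was lower in C and D (-0.59) and not called in A and B (0.13). An mRNA level says nothing of the activity or location of these proteins.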

How the data were processed

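The authors deposited a table of raw read counts per gene model, not normalised; its only unit here is counts. Per the submitters' processing notes, the tools were featureCounts 1.6.0, STAR 2.5.3a, Trim Galore 0.4.3, bcl2fastq 2.9 and Picard, and the build R64; their settings, such as strand and shared reads, were not given in the sources used here. Of 6596 models, 4 further lines were empty. Models kept by filterByExpr (6558) were scaled by TMM (factors 0.879 to 0.902 in WT, 1.09 to 1.21 in mcd1-1) and tested with edgeR 4.0.16 (2-sided quasi-likelihood F test, a group term alone), with Benjamini-Hochberg adjustment over all genes. The common biological coefficient of variation was 0.253. A count of 0 allows 3 counts, 0.051 to 0.134 CPM, for counting error only.

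Alternatives, run over the same table, were DESeq2 1.42.0, limma 3.58.1 voom, 4 other scalings, 2 other filters, 2 blocks, each pair of letters alone, and leaving out each library. The scripts were tested on simulated data. Same-letter libraries correlated, after removal of group means, at 0.606, 0.452, 0.633 and 0.598, which meets the rule for pairing. Other letters within A and B or C and D correlated at 0.490 to 0.653, and across them at -0.643 to -0.448, so the letter is not singled out.

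Values in each library are given for MCD1, the 2 genes with the smallest p in each role group, the highest and lowest gene per kb, genes called lower, and a few others chosen after their values were seen. The 47 genes, the lists and the motifs were chosen with earlier results of these data known. Of 76 listed 60S factors, 75 matched a model. Promoter windows were read from the RefSeq R64 genome; near-identical copies (90% identity over 100 bp) were sought with blastn.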

Additional observations from a re-analysis of the deposited data

Results flagged for a closer look

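Single libraries stood far from the other 3 of their group in 5 of 112 groups of 4 libraries checked, by a gap to the nearest library, relative to the group's range, above Dixon's 95% critical value. Chance flags about 1 in 20 groups where the 4 values come from a single normal distribution. Many groups here split into A and B against C and D, so that rate need not hold for them. All 5 were mcd1-1 libraries A or B. NOP1 was low in mcd1-1 B, at 291 CPM against 444 to 468 CPM in the others. KRR1 was low in mcd1-1 B, at 129 CPM against 151 to 152 CPM. FAL1 was low in mcd1-1 A, at 36.6 CPM against 44.7 to 45.6 CPM. RRT14 was high in mcd1-1 A, at 84.4 CPM against 62.1 to 64.9 CPM. MCD1 was high in mcd1-1 A, at 378 CPM against 286 to 295 CPM. NOP1 and KRR1 were called lower without mcd1-1 B as well.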

How the results depend on the processing

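The count of genes lower among the 47 (11) was 26 with the replicate block, 33 with the pair of letters (A and B, or C and D) as a block, 22 in A and B only, 40 in C and D only and 5 with library size alone, and the count higher (0) was 2 with that second block, 5 in A and B only and 2 with library size alone. Leaving out each library gave 6 to 11 lower. For the other small-subunit factors, 16 lower became 29 with the replicate block, 31 with the other block, 38 in C and D only and 3 with library size alone, and 8 to 16 without single libraries. Their 0 higher became 1 with that block, 1 with upper-quartile scaling, 7 in A and B only and 4 with library size alone. Over all genes, 1359 higher and 1291 lower became 2207 and 2241 with the other block, 2287 and 2164 in A and B only, 2549 and 2436 in C and D only, and 2460 and 550 with library size alone. The replicate block gave 1978 lower, upper-quartile scaling 1739 higher and 915 lower, and leaving out single libraries 859 to 1249 lower and 1163 to 1373 higher. ECM16 (0.55) and UTP18 (0.28) reversed in A and B only. The cause of these shifts was not tested. The median of the 47 genes (-0.41) stayed below 0 in the 20 alternatives, but was -0.08 with library size alone, -0.22 in A and B only, -0.27 with upper-quartile scaling, and -0.25 without WT D, and ran from -0.57 to -0.25 without single libraries. Among the 11 genes, library size alone ended the calls on ENP1, IMP3, IMP4, MPP10, UTP8 and UTP11, upper-quartile scaling, which moved the median of all genes to 0.13, those on ENP1, IMP3 and UTP11, the 10 CPM filter those on ENP1 and IMP3, and voom that on IMP3 (adjusted p 0.0521).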
